A study of Mus musculus with 6 samples.

Results

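The 9 genes described here encode tight junction proteins of the mouse epidermis. They are 7 claudins (Cldn1, Cldn3, Cldn4, Cldn7, Cldn8, Cldn12 and Cldn23), occludin (Ocln) and the scaffold ZO-1 (Tjp1). They were taken by symbol from the 41214 gene identifiers of each count file, and all 9 were found. The study sequenced messenger RNA of epidermis from trypsinised skin of C57BL/6 pups that were at postnatal day 4. The knockout libraries carry the genotype label ARPC4 ko (3 libraries) and the others the label wt (3 libraries). ARPC4 belongs to the core of Arp2/3, the complex that starts actin branches, and the series title places the knockout in the epidermis. The labels name no floxed allele, Cre driver or number of animals per library, so what limits the knockout as a model is not known from them.

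Tight junctions seal the space between neighbouring epithelial cells. Claudins span the membrane and form the paired strands, occludin runs along the same strands, and ZO proteins bind the cytoplasmic tails and link them to actin filaments. In the epidermis functional tight junctions lie in the granular layer, below the cornified layer, while several claudins are also made in the layers beneath. Mice without claudin-1 die soon after birth from loss of water through the skin, and loss of Arp2/3 in mouse epidermis has been reported to impair tight junctions. These junctions are regulated largely through protein placement and the actin cortex, which were not measured here.

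The libraries held 17561294 to 22659511 counts assigned to genes. Keratinocyte genes were abundant in every library, with Krt10 at 31750 to 65510 CPM (counts over the TMM-scaled library size) over all 6. Basal markers ranged widely within each genotype: the summed CPM of 8 of them was 3635, 4985 and 13460 in ko replicates 1 to 3 and 7765, 2121 and 10430 in wt replicates 1 to 3. The 8 were Krt5, Krt14, Krt15, Col17a1, Itga6, Itgb4, Trp63 and Postn. Only Postn had every ko library above every wt library. It was at 350.8, 417.5 and 1757 CPM in ko and 191.5, 40.9 and 270.5 CPM in wt. Markers of dermal cells were higher in ko, with summed fibroblast markers of 161.7 to 721.1 CPM in ko and 52.9 to 156.3 CPM in wt, and summed endothelial markers of 9.86 to 19.0 CPM in ko and 3.09 to 4.09 CPM in wt. DESeq2 called 4 of 6 fibroblast and 4 of 6 endothelial markers higher, against 2.82% of all genes. The edgeR test called 0 of either, against 0.219% of all genes higher. Arpc4 itself was at 64.5 to 67.6 CPM in ko and 72.6 to 82.5 CPM in wt, a level that does not check the deletion because the labels do not give the exons removed.

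Claudin-4 and claudin-1 dominated the claudin transcripts of this epidermis in both genotypes. Per kilobase of exon, an approximate scale for comparing different genes, Cldn4 averaged 226.9 ± 6.23 CPM per kb in ko and 190.2 ± 62.0 CPM per kb in wt (SD, n = 3 each). Cldn1 averaged 123.8 ± 9.08 CPM per kb in ko and 124.1 ± 14.6 CPM per kb in wt. The order of these genes rests on merged lengths of all annotated exons, 1816 bases for Cldn4 and 4841 for Cldn1. Which transcripts were expressed was not determined. Without the division Cldn1 was above Cldn4 in every library, with mean CPM of 599.4 and 412.0 in ko and 600.7 and 345.4 in wt. Cldn23 followed at 35.4 ± 9.52 in ko and 57.9 ± 16.6 in wt, then Tjp1 at 28.7 ± 5.27 and Ocln at 17.0 ± 1.90 in ko, against 23.7 ± 4.64 for Tjp1 and 21.04 ± 3.74 for Ocln in wt, all in CPM per kb. Cldn12 (5.62 CPM per kb in ko, 6.14 in wt), Cldn3 (3.05 and 5.37), Cldn8 (1.19 and 1.46) and Cldn7 (0.0895 and 0.253) made up the low end. The order of the 9 mean levels was the same in both genotypes. Neighbours whose library ranges overlapped were Cldn23 and Tjp1 in ko, and Cldn4 and Cldn1, Tjp1 and Ocln, and Cldn12 and Cldn3 in wt. All other neighbours had separate ranges.

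The 2 most abundant claudin genes lie on different chromosomes, and their promoters are shown because most claudin reads came from these genes. The 250 bases before the RefSeq start are given 5′ to 3′ on the gene's strand, for Cldn1 at chr16:26371840-26372089 and for Cldn4 at chr5:134946935-134947184, both minus strand, GRCm38.p6. Capitals mark CACCTG or its reverse complement CAGGTG, the E-box letters bound by the Snail and Zeb repressors.
Cldn1: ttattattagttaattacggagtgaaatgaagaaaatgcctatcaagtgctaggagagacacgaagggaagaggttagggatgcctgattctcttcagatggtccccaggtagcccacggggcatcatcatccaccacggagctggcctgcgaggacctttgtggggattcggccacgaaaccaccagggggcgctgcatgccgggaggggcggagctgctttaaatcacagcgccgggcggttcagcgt
Cldn4: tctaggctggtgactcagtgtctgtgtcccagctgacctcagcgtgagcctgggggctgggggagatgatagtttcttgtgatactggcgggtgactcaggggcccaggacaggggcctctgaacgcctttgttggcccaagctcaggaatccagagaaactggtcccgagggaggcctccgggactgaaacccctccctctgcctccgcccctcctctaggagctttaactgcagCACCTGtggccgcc
The Cldn4 window holds 1 such E-box, beginning 14 bases before the start, and the Cldn1 window none. RefSeq promoters were matched for 7 of the 9 genes, and Cldn4 was the 1 of these 7 with the E-box letters, which stand in 17.1% of 27025 promoter windows of this length. The palindrome AACCGGTT, bound by Grainyhead-like factors, was in 0 of the 7 and in 0.126% of all windows. These are letter matches and not measured sites.

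**Figure D1:**
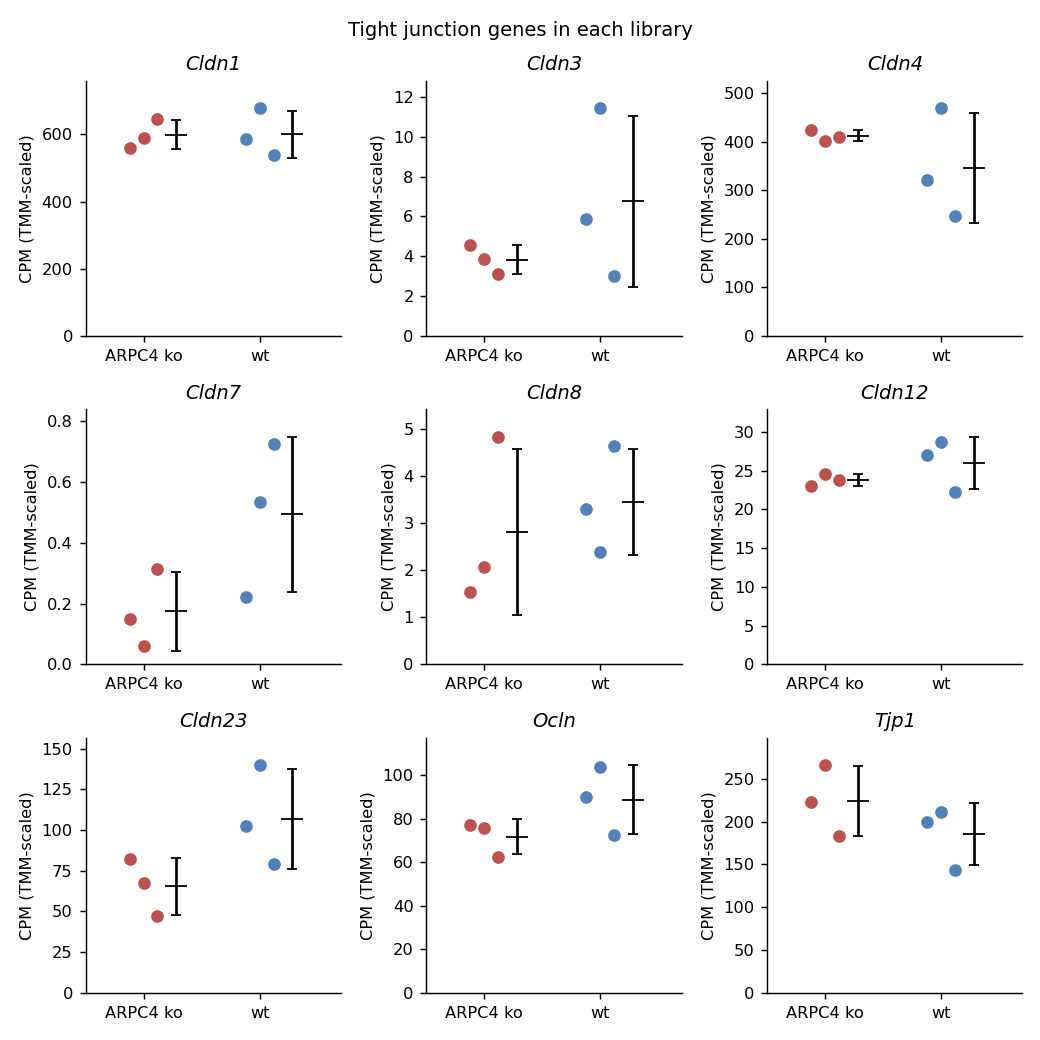
Each panel plots 1 gene, with CPM (TMM-scaled, from 0) on the vertical axis, ARPC4 ko libraries in red on the left and wt libraries in blue on the right, 1 point per library, and the mean and SD of 3 libraries as black bars. The libraries of the genotypes overlap in all 9 genes, and the wt libraries are wider apart than the ko libraries for Cldn4, at 247.6 to 468.6 CPM against 401.8 to 424.1 CPM in ko.

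The comparison of ko with wt asked whether transcripts of the junction's own components differed between the genotypes. None of the 9 genes passed the test. Of the 9, 8 passed the filter on low counts and were tested. With edgeR's quasi-likelihood test and Benjamini-Hochberg adjustment over 13704 genes, 0 of the 8 were called higher, against 0.219% of all genes, and 0 were called lower, against 0.0% of all genes. At an unadjusted p under 0.05 there was 1, Cldn23, which was lower, against 5.25% of all genes lower at that p. DESeq2, which also tested Cldn7, called 0 of the 9, against 2.82% of all genes higher and 1.43% lower. The limma-voom test called 0 of the 8 and also 0 of all genes, so its result says nothing about the members. In 0 of the 8 did the genotypes separate completely, whereas of all genes 11.3% had every ko library above the wt libraries and 8.03% had every ko library below, 19.4% in all. The log2 fold changes (ko over wt) of the 8 ran from -0.81 for Cldn3 to 0.27 for Tjp1, with 6 below 0 and a median of -0.21. Over all 13704 genes tested, 6429 were below 0 and the median was 0.02. In whole-tissue RNA, fewer cells of a type and less RNA per cell cannot be told apart.

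Cldn1 (ENSMUSG00000022512, chromosome 16, 26356642 to 26371841, minus strand, mm10) encodes the claudin needed for the epidermal water barrier. It was at 560.9, 590.0 and 647.3 CPM in ko replicates 1 to 3 and at 585.2, 677.7 and 539.2 CPM in wt replicates 1 to 3. The highest and the lowest library were both wt, so the ko libraries lay within the wt range. The log2 fold change was -0.0031 (SE 0.15, 95% interval -0.36 to 0.35, edgeR adjusted p = 0.997). That interval was narrower than those of Cldn4 and Cldn23, the other abundant claudins.

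Cldn4 (ENSMUSG00000047501, chromosome 5, 134945119 to 134946934, minus strand) encodes a sealing claudin made mainly in the upper epidermal layers. It was at 424.1, 401.8 and 410.0 CPM in ko and at 320.2, 468.6 and 247.6 CPM in wt. The 3 ko libraries were close together, above wt replicates 1 and 3 and below wt replicate 2. Its log2 fold change was 0.25 (SE 0.24, 95% interval -0.31 to 0.82, edgeR adjusted p = 0.746). Without wt replicate 2 it was 0.53, and without wt replicate 3 it was 0.04, neither past the threshold.

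Cldn3 (ENSMUSG00000070473, chromosome 5, 134986214 to 134987472, plus strand), another sealing claudin, lies 39279 bases from Cldn4 and was far less abundant. It was at 4.57, 3.84 and 3.10 CPM in ko and at 5.86, 11.4 and 2.99 CPM in wt. The wt libraries spanned the whole ko range. The log2 fold change was -0.81 (SE 0.48, 95% interval -1.95 to 0.34, edgeR adjusted p = 0.558), and it was -0.21 without wt replicate 2.

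Cldn23 (ENSMUSG00000055976, chromosome 8, 35824712 to 35826559, minus strand), a claudin also made in the gut epithelium, had the smallest p of the members. It was at 82.0, 67.4 and 46.9 CPM in ko and at 102.4, 139.8 and 78.9 CPM in wt. The genotypes overlapped only in that ko replicate 1 lay above wt replicate 3. The log2 fold change was -0.71 (SE 0.27, 95% interval -1.36 to -0.06), with an unadjusted p of 0.0363 and an adjusted p of 0.331 over all genes (edgeR). It was -0.73 in the 4 libraries with a date in the title and -0.75 between the single undated libraries. With dated against undated titles as a covariate the adjusted p was 0.0382, and Cldn23 was then the 1 member called, where 3.2% of all genes were called higher and 1.98% lower. With the mean of the basal markers as a covariate it was 0.0323 (log2 fold change -0.59), where 3.58% of all genes were called higher and 2.02% lower. That mean includes Postn, which was higher in every ko library than in every wt library, so the covariate is not independent of genotype. Over all 18 alternative analyses the adjusted p of Cldn23 ran from 0.0323 to 0.635, and its log2 fold change was below 0 in each, between -0.91 and -0.47.

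The remaining claudins were low. Cldn12 (chromosome 5, 5489537 to 5514958), a claudin that lacks the usual tail motif for binding ZO proteins, was at 23.0, 24.5 and 23.8 CPM in ko and at 27.0, 28.7 and 22.2 CPM in wt (log2 fold change -0.13, 95% interval -0.44 to 0.19, edgeR adjusted p = 0.776). Its log2 fold change was -0.05 without wt replicate 2 and -0.24 without wt replicate 3. Cldn8 (chromosome 16, 88560828 to 88563183), best known from the kidney collecting duct, was at 1.54, 2.07 and 4.83 CPM in ko and at 3.30, 2.39 and 4.63 CPM in wt (-0.30, 95% interval -1.42 to 0.83, edgeR adjusted p = 0.87). In both genotypes replicate 3, the library without a date in its title, held the most Cldn8. Cldn7 (chromosome 11, 69964779 to 69967885), which binds the adhesion protein EpCAM, had 3, 1 and 6 counts in ko and 5, 10 and 16 counts in wt. It did not pass the filter on low counts, and its counts are too few to settle a difference: 3 counts correspond to between 0.132 and 0.171 CPM. With no filter its log2 fold change was -1.43 (edgeR adjusted p = 0.484), and DESeq2 gave -1.51 (adjusted p = 0.5415).

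Ocln (ENSMUSG00000021638, chromosome 13, 100496507 to 100552718, minus strand) was at 76.9, 75.6 and 62.4 CPM in ko and at 90.0, 104.0 and 72.5 CPM in wt. Ko replicates 1 and 2 lay above wt replicate 3 and below the other wt libraries. The log2 fold change was -0.31 (SE 0.16, 95% interval -0.70 to 0.08, edgeR adjusted p = 0.501), and it was -0.18 without wt replicate 2. Tjp1 (ENSMUSG00000030516, chromosome 7, 65296165 to 65527781, minus strand) was at 222.6, 265.8 and 183.5 CPM in ko and at 199.7, 211.8 and 143.9 CPM in wt. Its log2 fold change was 0.27 (SE 0.20, 95% interval -0.21 to 0.76, edgeR adjusted p = 0.66), with the genotypes overlapping. It was 0.13 without ko replicate 2 and 0.10 without wt replicate 3.

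**Figure D2:**
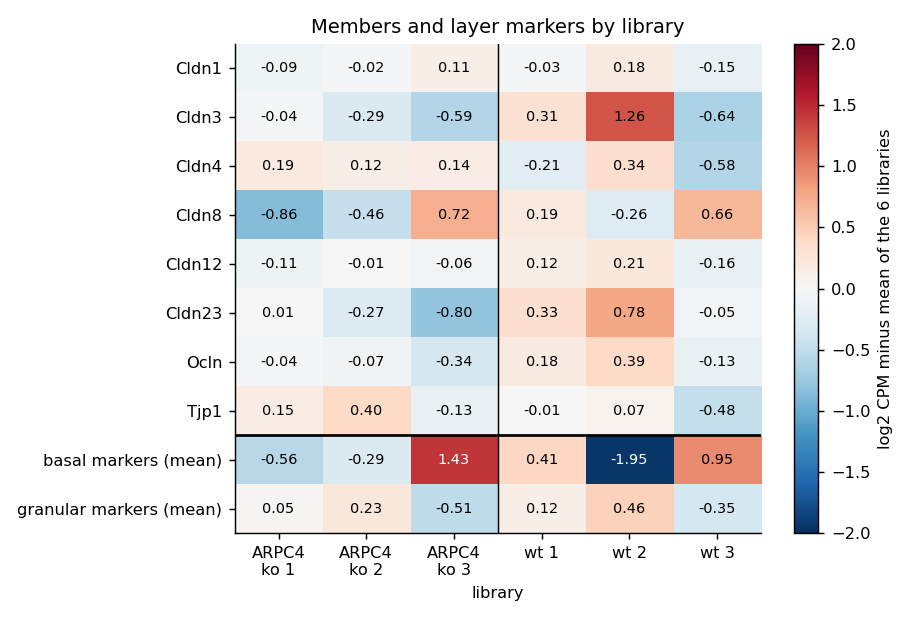
Rows are the 8 members tested and, below the line, the mean of the basal and of the granular markers; columns are the 6 libraries, with ARPC4 ko on the left. Cells give log2 CPM minus the mean of the row over the 6 libraries, and wt replicate 2 is lowest for basal markers (-1.95) and highest for Cldn1, Cldn3, Cldn4, Cldn12, Cldn23 and Ocln.

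The members' levels followed single libraries. Wt replicate 2 was the highest of the 6 libraries in 6 of the 9 members (Cldn1, Cldn3, Cldn4, Cldn12, Cldn23 and Ocln). The same library had the lowest basal marker level, 1.95 log2 units below the mean of the libraries, and the highest granular marker level, 0.46 above it. Summed hair follicle markers were also highest there, at 11570 CPM, lowest in wt replicate 3, at 3927 CPM, and between 4160 and 6721 CPM in the other libraries. Wt replicate 3 was the lowest library in 5 members (Cldn1, Cldn3, Cldn4, Cldn12 and Tjp1), with a basal level 0.95 above the mean and a granular deviation of -0.355. Ko replicate 3 had the highest basal level, 1.43 above the mean, the lowest granular level, the highest Cldn8 and the lowest Cldn23 and Ocln. With the mean of the basal markers, Postn included, as a covariate, the log2 fold change was -0.49 for Cldn3, against -0.81 without it, and -0.51 for Cldn8, against -0.30. It was 0.38 for Cldn4, 0.34 for Tjp1, -0.24 for Ocln, -0.10 for Cldn12 and 0.02 for Cldn1. None of these 7 passed the test in that fit (edgeR adjusted p of 0.212 to 0.953). The part of granular or hair follicle markers was not tested.

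**Figure D3:**
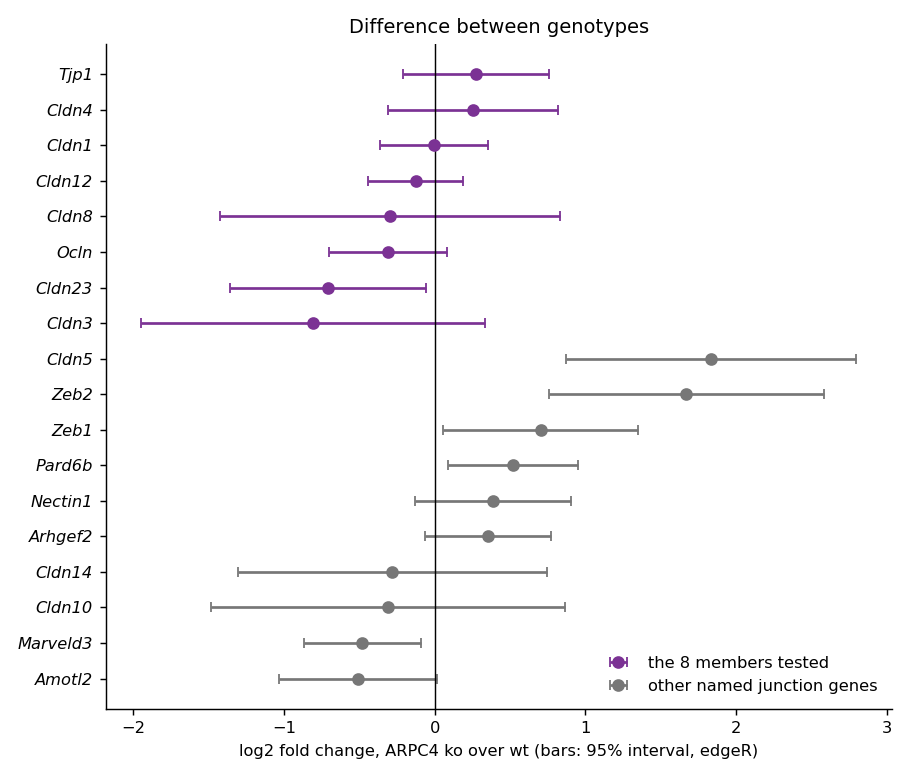
Points are log2 fold changes of ARPC4 ko over wt and bars their 95% intervals from the edgeR fit over all genes, with members in purple above and other named junction genes in grey. Among the members the interval of Cldn23 (-1.36 to -0.06) alone leaves out 0; among the others those of Cldn5, Zeb2, Zeb1, Pard6b and Marveld3 do, and 0 of the genes drawn passed the adjusted threshold.

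The make-up of the claudin pool was then examined within each library, a quantity chosen after the members' values were seen. Summed over 23 claudin genes, the pool was 406.8, 392.0 and 397.7 CPM per kb in ko replicates 1 to 3 and 366.7, 493.8 and 302.0 CPM per kb in wt replicates 1 to 3. The total was thus nearly constant in ko and ranged widely in wt. Cldn4 took 57.4, 56.4 and 56.8% of the pool in ko and 48.1, 52.3 and 45.2% in wt, so that the genotypes did not overlap and ko was higher. Cldn23 took 10.9, 9.31 and 6.39% in ko and 15.1, 15.3 and 14.1% in wt, again without overlap, with ko lower. Cldn1 took 28.5, 31.1 and 33.6% in ko and 33.0, 28.4 and 36.9% in wt, with overlap. Cldn1 and Cldn4 together made up 87.9 ± 2.27% in ko and 81.2 ± 0.732% in wt (SD, n = 3 each). The shares also rest on the merged exon lengths. They are parts of a whole, so a lower share of any gene raises those of the others. The shares of Cldn12 and Cldn3 overlapped between the genotypes, as did the CPM of Cldn4 and of Cldn23. The CPM of 19.4% of all genes tested did not overlap, and no such figure was computed for shares. No test is given for the shares, since they were chosen for their difference.

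**Figure D4:**
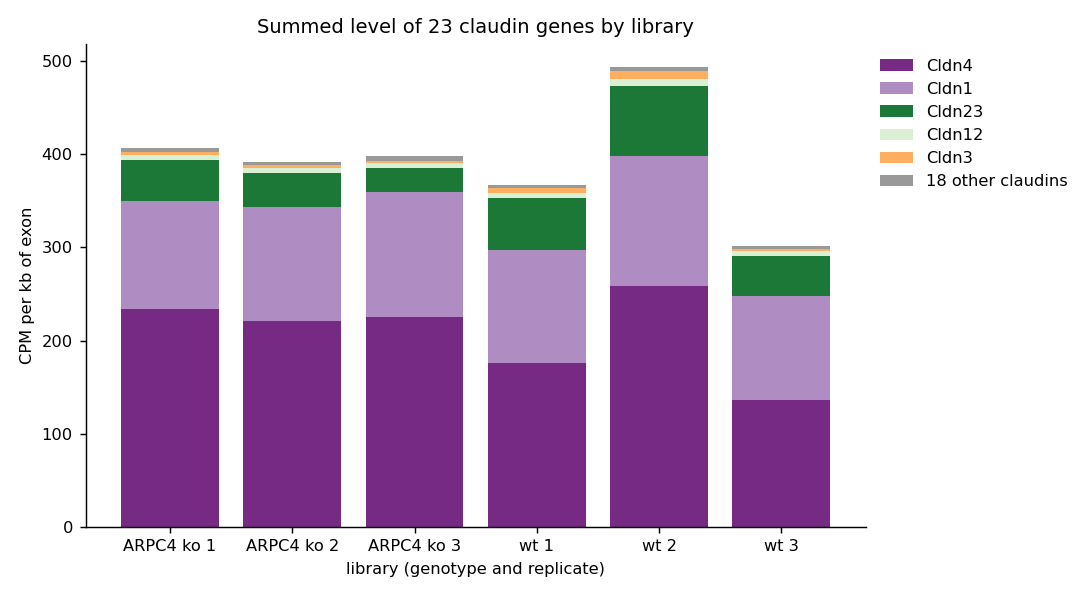
Stacked bars give CPM per kb of exon for 23 claudin genes in each library, with the 3 ARPC4 ko libraries left of the 3 wt libraries. Cldn4 and Cldn1 fill most of each bar, and the Cldn23 segment is 6.39 to 10.9% of the ko bars and 14.1 to 15.3% of the wt bars.

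Ratios of 2 members within a library do not depend on the scaling between libraries. They too were computed after the levels had been seen. Of the 28 ratios among the 8 members tested, 10 (35.7%) had every ko library on one side of every wt library, against 21.0% of all pairs of genes tested. The 28 ratios share 8 genes and are not independent. The 10 involved Cldn4, Cldn23 and Tjp1 4 times each, Ocln 3 times, Cldn3 and Cldn12 2 times each, Cldn1 once and Cldn8 not at all.

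The counts of Cldn4 per count of Cldn23 were 5.18, 5.96 and 8.73 in ko and 3.13, 3.35 and 3.14 in wt. On the log2 scale the mean ratio was 2.69 ± 0.391 in ko and 1.68 ± 0.0566 in wt (SD, n = 3 each), a difference of 1.01. Cldn23 per Tjp1 was 0.368, 0.254 and 0.256 in ko and 0.513, 0.66 and 0.548 in wt, a log2 difference of -0.99. Relative to both genes, the only tested members with positive log2 fold changes, Cldn23 was lower in the ko libraries. It was also lower relative to Cldn1 and to Ocln, while its ratios to Cldn3, Cldn8 and Cldn12 overlapped between the genotypes. Cldn4 per Ocln was 5.51, 5.31 and 6.57 in ko and 3.56, 4.51 and 3.42 in wt (log2 difference 0.60). Ocln per Tjp1 was 0.346, 0.285 and 0.34 in ko and 0.451, 0.491 and 0.504 in wt (log2 difference -0.58). These 4 ratios are shown because their groups did not overlap, so no test is given for them. Cldn4 to Tjp1, the members whose log2 fold changes were highest, overlapped (1.91, 1.51 and 2.23 in ko, 1.60, 2.21 and 1.72 in wt).

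**Figure D5:**
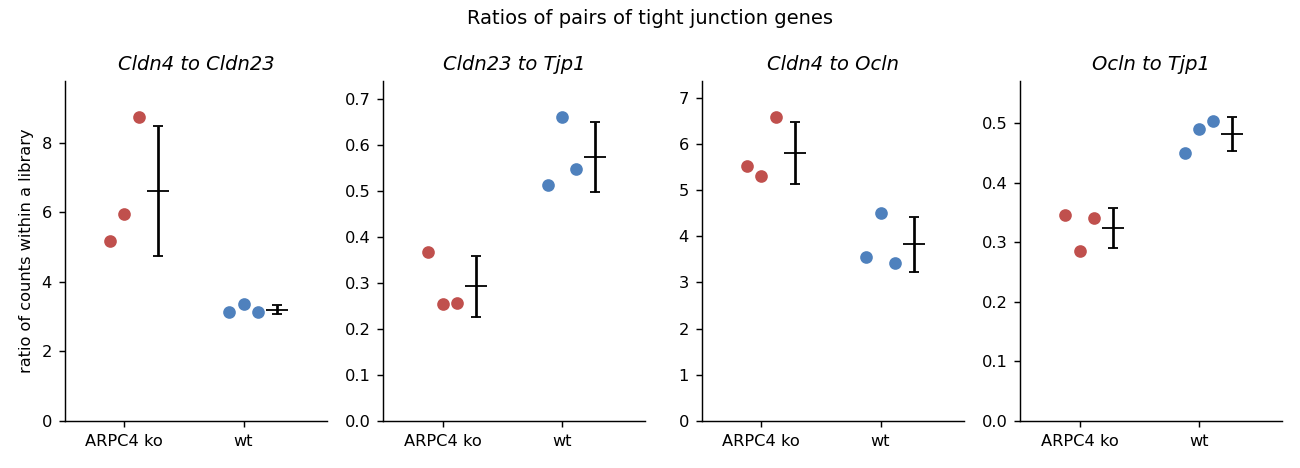
Each panel plots the ratio of counts of 2 genes within a library, from 0, with ARPC4 ko in red on the left and wt in blue on the right, 1 point per library, and mean and SD as black bars. In the first panel the ko libraries lie at 5.18 to 8.73 and the wt libraries at 3.13 to 3.35, and the genotypes are apart in all 4 panels, which were chosen for that.

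The genes whose levels followed each member most closely over the 6 libraries were found among those with a mean of at least 5 CPM. With 6 libraries and so many genes, high coefficients are found for any gene, and they are given as a description. The nearest to Cldn1 were Nudt19 (Pearson r = 0.99) and Vmp1 (0.958), and to Cldn4 Eif2ak1 (0.99) and Scnn1a (0.978), the alpha subunit of the epithelial sodium channel. Cldn23 was followed by 2310007B03Rik (0.998) and Ano10 (0.998), Ocln by Gabarapl1 (0.998) and Kctd5 (0.996), and Tjp1 by Zfp605 (0.996) and Fam135a (0.996). Those of the low claudins were Aif1l (0.998) and Nck2 (0.996) for Cldn3, Eci2 (0.99) and Wls (0.989) for Cldn8, and Cald1 (0.975) and Bclaf3 (0.973) for Cldn12.

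Other genes of the junction were read from 7 lists of 79 genes, of which 62 passed the filter. With edgeR 0 of the 62 were called, while at an unadjusted p under 0.05 there were 4 above and 1 below wt, against 7.98% and 5.25% of all genes. DESeq2 called 1 higher (Zeb2), against 2.82% of all genes. Complete separation of the genotypes was seen in 7 of the 62 with ko higher and in 3 with ko lower. Over the 13704 genes tested the shares were 11.3% and 8.03%, and 19.4% for either direction. Separation was thus not more frequent in these lists than among genes at large. Ctnna1 (ko higher), Ildr1 and Ybx3 (both ko lower) also separated and are not described further. The JAM and tricellular list holds membrane proteins of the junction, some of them at the points where 3 cells meet. Of its 7 tested genes, 5 had log2 fold changes below 0, against 6429 of all 13704 genes tested. The median of the 7 was -0.48, against 0.02 over all genes. The 2 above 0 were JAM-A (F11r), at 164.7, 159.0 and 187.1 CPM in ko and 140.4, 153.4 and 145.7 CPM in wt, and Cxadr, whose log2 fold change was 0.34. F11r did not overlap between the genotypes (log2 fold change 0.22, edgeR adjusted p = 0.514), and neither gene passed (Cxadr edgeR adjusted p = 0.584). Marveld3, a relative of occludin, was at 8.15, 6.62 and 7.5 CPM in ko and at 9.60, 10.6 and 10.9 CPM in wt. All ko values were thus under all wt values, and the log2 fold change was -0.48 (SE 0.16, unadjusted p = 0.0223, edgeR adjusted p = 0.282). The tricellular receptor Lsr was at 127.9 ± 26.3 CPM in ko and 180.5 ± 38.8 CPM in wt (SD, n = 3 each, edgeR adjusted p = 0.383), and tricellulin (Marveld2) at 19.1 ± 4.23 CPM in ko and 25.0 ± 2.82 CPM in wt (edgeR adjusted p = 0.455).

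Among 16 tested plaque scaffolds the median log2 fold change was -0.10 and 0 had an unadjusted p under 0.05. Cingulin (Cgn), which binds ZO-1, was at 160.9 ± 49.3 CPM in ko and 210.2 ± 62.0 CPM in wt (SD, n = 3 each). Amotl2 had the smallest p of that list (log2 fold change -0.51, edgeR adjusted p = 0.393). The polarity genes had a median of 0.11. Their member with the smallest p was Pard6b, a partner of atypical protein kinase C, at 42.2, 45.8 and 65.8 CPM in ko and at 35.8, 37.3 and 34.0 CPM in wt, with no overlap and ko higher (log2 fold change 0.52, SE 0.18, unadjusted p = 0.0252, edgeR adjusted p = 0.294). Its log2 fold change was 0.26 without ko replicate 3 and 0.24 in the dated libraries alone. The claudin partners and proteases had a median of 0.06, with EpCAM (Epcam) at 250.5 ± 31.7 CPM in ko and 224.9 ± 40.4 CPM in wt, and Arhgef2 with the smallest p (log2 fold change 0.36, edgeR adjusted p = 0.465). The 12 adherens junction genes had a median of 0.09. E-cadherin (Cdh1) was at 935.3 ± 43.7 CPM in ko and 848.5 ± 15.7 CPM in wt (edgeR adjusted p = 0.755, groups not overlapping), and Nectin1 had the smallest p there (0.39, edgeR adjusted p = 0.533).

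Cldn5, the claudin of blood vessel walls, had the largest log2 fold change of any tested claudin. It was at 0.944, 1.18 and 0.629 CPM in ko and at 0.308, 0.213 and 0.227 CPM in wt, from 4 to 20 counts per library. The ko and wt values did not overlap (log2 fold change 1.84, SE 0.40, unadjusted p = 0.00289, edgeR adjusted p = 0.127). All 5 tested endothelial markers also had every ko value above the wt values, against 11.3% of all genes. So did Emcn, left out by the filter on low counts, with 9, 22 and 4 counts in ko and 1, 0 and 3 in wt. Among the 5 was VE-cadherin (Cdh5) at 4.82, 4.02 and 1.78 CPM in ko and 0.264, 0.532 and 0.499 CPM in wt. The other tested claudins outside the 9 were Cldn10 at 0.902 ± 0.491 CPM in ko and 1.14 ± 0.449 CPM in wt, and Cldn14 at 1.26 ± 0.420 CPM in ko and 1.57 ± 0.742 CPM in wt (SD, n = 3 each), with edgeR adjusted p of 0.87 and 0.863.

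Of the transcription factors linked to junction genes, Zeb2 had the smallest p. It was at 5.17, 6.62 and 2.78 CPM in ko and at 1.497, 1.17 and 1.86 CPM in wt, again apart (log2 fold change 1.67, SE 0.38, unadjusted p = 0.00357, edgeR adjusted p = 0.136, DESeq2 adjusted p = 0.00431). Zeb1 was at 3.18 ± 0.601 CPM in ko and 1.95 ± 0.433 CPM in wt (SD, n = 3 each, unadjusted p = 0.0376, edgeR adjusted p = 0.337). Both repress epithelial junction genes and are also made in fibroblasts, endothelium and immune cells. The summed fibroblast, endothelial and melanocyte markers were, in each ko library, above all wt libraries. For fibroblasts ko replicate 3 was close to wt replicate 3 (161.7 and 156.3 CPM), and its Col1a1 and Col1a2 levels were below those of wt replicate 3. Melanocyte markers summed to 71.7, 83.6 and 117.9 CPM in ko and 66.6, 61.3 and 57.1 CPM in wt. Macrophage and Langerhans markers overlapped, at 117.8, 76.9 and 97.5 CPM in ko and 58.1, 57.0 and 99.5 CPM in wt. Their log2 fold changes were above 0 in 5 of 5, against 7275 of all 13704 genes tested. The part of these cell types in the Cldn5, Zeb1 and Zeb2 values was not tested. Snai2 was at 8.45 ± 4.29 CPM in ko and 9.41 ± 7.10 CPM in wt. The Grainyhead-like factors activate junction genes in epithelia. Their log2 fold changes were -0.04 for Grhl1, 0.1744 for Grhl2 and 0.17 for Grhl3, with edgeR adjusted p of 0.969, 0.8475 and 0.883.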

How the data were processed

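The authors deposited raw counts for each Ensembl gene, in 1 file per library. The labels give a stranded messenger RNA kit and single-end reads of 51 bp, and the submitters' processing notes list mm10, HTSeq, Bowtie 1.1 and TopHat2 2.0.12. No source used here gives their settings, strand option or annotation release. Reads with more than 1 alignment (32.4 to 40.9% of all reads listed), ambiguous reads and reads outside genes (at most 0.499% and 0.377%) stayed out of library sizes and tests. In GENCODE M21 (mm10) Cldn3 overlaps Wbscr25, which had 4 counts in all, and Tjp1 overlaps 3 predicted genes not analysed here.

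Symbols were found for 40254 of 41214 identifiers. CPM are counts over TMM-scaled library sizes, and CPM per kb divides by the merged exon length. edgeR 4.0.16 in R 4.3.3 (filterByExpr, TMM, robust glmQLFit, glmQLFTest) tested ko against wt over 13704 genes, with Benjamini-Hochberg adjustment and a threshold of 0.05. DESeq2 1.42.0 and limma-voom 3.58.1 were alternatives. The SE of a log2 fold change (ko over wt) is its size over the square root of F. On simulated counts of 3 ko against 3 wt with 200 changed genes among 13527, edgeR found 37% of the 2-fold and 93% of the 8-fold changes. Of its 138 calls, 8 were false. DESeq2 found 62% and 93%, but 51 of its 206 calls were false, so genes called by DESeq2 alone are less certain.

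Groups came from the genotype label and replicate numbers from title marks (I, II, Tryp). The labels do not state that each replicate was another animal, so p-values reflect the spread of these samples, which may be technical. All replicate pairs differed beyond counting error (chi-square over degrees of freedom 26.2 to 113). The members and lists were chosen with earlier results of these data known. All 9 members are named, and of the other lists the tested claudins, the member with the smallest p, and those with an unadjusted p under 0.05 whose groups did not overlap. Also named, as examples chosen after their values were seen, are F11r, Cxadr, Lsr, Marveld2, Cgn, Epcam, Cdh1, Snai2, Grhl1, Grhl2, Grhl3 and Cldn19. Ctnna1, Ildr1 and Ybx3 are named because their groups did not overlap. Filaggrin (Flg) had no identifier match. For each member the 2 genes of highest Pearson r on log2 CPM (prior count 2) are given.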

Additional observations from a re-analysis of the deposited data

How the results depend on the processing

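Of the 9 members 0 were called in the main analysis, and 1, Cldn23, was called with the dated title or the basal marker mean as covariate; in the other 16 alternatives, leaving out each library included (0 to 0), 0 were called. Of the other junction genes 0 were called, against 1 with DESeq2 (Zeb2), 1 with the dated libraries alone (Zeb2), 3 with the dated title as covariate (Cldn5, Ildr2, Zeb2) and 3 with the basal covariate (Cdh3, Cldn5, Zeb2), and 0 to 0 when a library was left out. Over all genes 30 were called, against 57 with no filter, 18 with at least 1 CPM in 3 libraries, 18 with the older quasi-likelihood fit, 650 with DESeq2, 0 with limma-voom (1748 at an unadjusted p under 0.05), 354 with the replicate block, 709 with the dated title, 227 in the dated libraries, 768 with the basal covariate and 0 to 64 without 1 library, when 1229 to 2350 had an unadjusted p under 0.05. The cause of these differences was not tested.

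The log2 fold change of Cldn1 changed sign with the replicate block (0.0008), with the basal covariate (0.0188) and without 1 library (-0.0977 to 0.0902). That of Cldn8 ran from -0.98 to 0.0075 and that of Cldn14 from -0.59 to 0.13 without 1 library. The other members that passed the filter on low counts kept their sign in all 18 alternatives. Deviations of same-numbered libraries from their group means correlated at -0.186, 0.469 and 0.67 across genes. Those of differently numbered libraries ran from -0.689 (ko replicate 3 and wt replicate 2) to 0.509 (ko replicate 1 and wt replicate 2). Whether the replicate numbers pair the libraries is not settled by these values, and the labels do not state it. With the replicate block 0 members passed, and the adjusted p of Cldn23 was 0.0765. Another scaling moved the median log2 fold change of all genes by -0.0371 to -0.0179. Cldn7, at 1 to 16 counts per library, was too shallow for a comparison.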

Other observations

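Among claudins below the filter on low counts, Cldn19 had 21, 6 and 3 counts in ko replicates 1 to 3 and 1, 0 and 0 counts in wt replicates 1 to 3. It was noticed after its values were seen, and DESeq2 gave an adjusted p of 0.0501. Claudin-19 is known from myelinating Schwann cells and the kidney. Cldn16, Cldn18, Cldn22 and Cldn24 had 0 counts in all 6 libraries.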
